A study of Mus musculus with 24 samples.

Results

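The 8 genes described here encode the receptors for interleukin-12 (IL-12) and interleukin-18 (IL-18) and the proteins that carry their signals in natural killer (NK) cells: Il12rb1, Il12rb2, Il18r1, Il18rap, Stat4, Jak2, Tyk2 and Myd88. They were chosen by gene symbol from the 45237 genes listed, and each symbol matched 1 gene. NK cells were sorted from the spleens of wild-type C57BL/6J mice, by the study's methods females of 7 to 9 weeks unless it says otherwise. The sorted cells were alive, stained for NKp46 or NK1.1, whose antibodies carried the same dye, and lacked lineage markers such as CD3 and CD5. The groups were untreated controls (n = 4), mice bearing RMA lymphoma at an early (day 2, n = 3), intermediate (day 4, n = 3) or late (day 9, n = 3) stage, and mice bearing RMA-KR lymphoma at an early (day 2, n = 3), intermediate (day 7, n = 5) or late (day 14, n = 3) stage. RMA-KR is a line made from RMA lymphoma cells by knocking out B2m, which removes surface MHC class I, and by a lentivirus. The lentivirus expresses Rae1-β, a ligand of the activating receptor NKG2D, together with ZsGreen. By the study, the RMA cells followed in mice expressed ZsGreen as well. The control mice were not injected, so tumor and injection cannot be told apart. The study gives its late-stage sequencing groups as numbers of mice; the labels do not tie libraries to mice at any stage, so p-values measure the spread between these libraries. The tumor lines were sampled on different days at the intermediate and late stages, so tumor line and day cannot be told apart there. The study sequenced NK cells to look for causes of their loss of function at the late stage, and the early and intermediate comparisons follow from the labels.

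IL-12 binds a receptor made of the β1 chain (Il12rb1), which IL-23 also uses, and the β2 chain (Il12rb2). The chains are coupled to the kinases Tyk2 and Jak2, which phosphorylate the transcription factor Stat4. IL-18 binds Il18r1, and the accessory chain Il18rap joins the complex, which signals through the adaptor Myd88 toward NF-κB and MAP kinases. In NK cells both cytokines together are a strong stimulus for interferon-γ.

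Of the 8 genes, only Il12rb1 passed the test (a change of more than 2-fold with an adjusted p below 0.05) in any of the 11 comparisons between groups, and only in RMA intermediate against control. The other 87 of 88 tests did not. The intervals show what these tests could see: in 61 of the 88 tests the 95% interval of the difference lay within a 2-fold change in either direction, including all 11 tests each of Il12rb2, Il18rap, Stat4 and Myd88, but only 2 of 11 of Il12rb1 and 1 of 11 of Jak2. Across all 7 groups at once, where a gene passed on adjusted p alone, Il12rb1 (adjusted p = 0.00811) and Stat4 (adjusted p = 0.0375) passed, and Il18r1 (adjusted p = 0.0564), Il18rap (0.153), Jak2 (0.176), Il12rb2 (0.224), Myd88 (0.335) and Tyk2 (0.571) did not pass. Stat4 did not pass in edgeR when genes of low counts were kept (adjusted p = 0.186) or with a block for replicate number (adjusted p = 0.0813). Nor did it pass without any 1 of 13 libraries (adjusted p up to 0.200 in edgeR). These were each RMA intermediate, RMA late or RMA-KR late library, RMA early 1 or 3, and RMA-KR early 2 or 3. Il12rb1 passed without each library in turn. Over 30 alternative ways of processing, Il18r1 passed in 7, Il18rap in 4 and Jak2 in 1, so their results depend on the processing. In the main edgeR fit, 2 of the 8 genes passed, against a background of 5.69% of the 17097 genes tested. Values are from the quasi-likelihood test of edgeR with Benjamini-Hochberg adjustment over the 17097 genes.

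The library totals ranged from 5138651 to 14863500 counts, with a median of 10489204, and the lowest count of any of the 8 genes in any library was 166. All 8 therefore passed the filter on low counts. Markers of NK cells had a summed level of 15837 to 32298 normalized CPM (counts scaled to a common library total) over 10 of 10 markers tested. Of 10 T cell markers, Cd3e had a median of 0.0482 CPM and Cd8a of 0, Cd3d and Trac had medians of 5.32 and 8.70 CPM and were at 0 in no library, Cd3g had a median of 8.24 CPM and was at 0 in 1 library, and the list summed to 141 to 299 CPM, of which Cd28 and Lat made most, at medians of 97.1 and 73.5 CPM. The 6 B cell markers summed to 0.206 to 53.1 CPM, with Ms4a1 at 0 in 17 of 24 libraries, and the 8 macrophage and monocyte markers summed to 3.20 to 79.8 CPM. That sum was 8.74 to 18.3 CPM in controls and higher without overlap in RMA late (33.2 to 50.9 CPM), RMA-KR early (29.2 to 31.4 CPM) and RMA-KR late (36.2 to 79.8 CPM), with the defining marker C1qa at 0 in 22 of 24 libraries. Cd68 was at 0 in none (median 16.2, highest 78.0 CPM) and Lyz2 in 8 (highest 17.2 CPM). The 5 dendritic cell markers, mostly Itgax, which NK cells also express, summed to 390.3 to 668 CPM in controls and without overlap to 775 to 910.0 CPM in RMA intermediate and 794 to 899 CPM in RMA-KR late; Siglech was at 0 in 15 of 24 libraries and Xcr1 in 7, and Zbtb46 in none (median 13.5 CPM). The 5 plasma cell markers, mostly Xbp1, which other cells also express, summed to 171 to 250.1 CPM in controls and without overlap to 282 to 317 CPM in RMA intermediate. The part of these markers in the results was not tested. In 4 libraries, control 4 and RMA-KR intermediate 3, 4 and 5, the summed level of 12 immediate early genes (Fos, Jun, Egr1 and others) was 1720 to 1996 CPM, below the 5048 to 12383 CPM of the other 20. RMA-KR intermediate 3, 4 and 5 also had the lowest NK marker sums of the 24 libraries, at 17427, 16661 and 15837 CPM against 28395 and 31013 CPM in RMA-KR intermediate 1 and 2, and their B cell markers summed to 50.9, 53.1 and 34.2 CPM against 6.25 and 17.6 CPM. The part of these 4 libraries in the results was not tested, and some of the results that use them are also given without them. These are whole-population libraries, so fewer cells with a transcript and less of it per cell cannot be told apart.

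The start regions of 5 of the genes are shown because Il18r1 and Il18rap lie next to each other and varied together over the libraries, and Stat4, Il12rb2 and Myd88 hold matches to motifs of interferon-activated factors. Each is a window of 300 bases, 250 before to 50 after an annotated transcription start, from RefSeq on GRCm38.p6 (mm10), read 5′ to 3′ on the strand of the gene. The RefSeq table had 10 such windows for 7 of the 8 genes. Capitals mark matches on either strand to the interferon-γ activated site (TTCNNNGAA), the core of the interferon-stimulated response element (GAAANNGAA), a T-box core (GGTGTGA) or a RUNX core (TGTGGT). The windows are Il12rb2 at chr6:67376139-67376438 (- strand), the third start of Il18r1 at chr1:40465756-40466055 (+ strand), Il18rap at chr1:40515112-40515411 (+ strand), the second start of Stat4 at chr1:52007990-52008289 (+ strand) and Myd88 at chr9:119339969-119340268 (- strand).
Il12rb2: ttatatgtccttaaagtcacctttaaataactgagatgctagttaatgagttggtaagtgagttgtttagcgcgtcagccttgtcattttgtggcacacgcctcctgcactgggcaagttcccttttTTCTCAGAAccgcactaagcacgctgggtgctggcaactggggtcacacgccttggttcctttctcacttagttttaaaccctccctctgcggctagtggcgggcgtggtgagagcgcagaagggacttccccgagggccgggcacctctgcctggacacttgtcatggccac
Il18r1: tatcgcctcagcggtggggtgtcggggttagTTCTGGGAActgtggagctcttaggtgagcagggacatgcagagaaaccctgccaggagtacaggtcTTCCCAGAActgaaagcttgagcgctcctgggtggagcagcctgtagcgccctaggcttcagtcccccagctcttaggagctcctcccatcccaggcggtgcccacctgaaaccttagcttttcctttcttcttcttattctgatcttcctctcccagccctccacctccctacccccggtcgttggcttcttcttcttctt
Il18rap: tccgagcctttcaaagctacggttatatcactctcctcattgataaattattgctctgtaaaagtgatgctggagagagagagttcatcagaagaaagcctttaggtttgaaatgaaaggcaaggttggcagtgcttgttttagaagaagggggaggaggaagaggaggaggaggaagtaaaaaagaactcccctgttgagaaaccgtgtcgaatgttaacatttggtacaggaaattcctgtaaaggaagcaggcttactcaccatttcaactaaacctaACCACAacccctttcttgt
Stat4: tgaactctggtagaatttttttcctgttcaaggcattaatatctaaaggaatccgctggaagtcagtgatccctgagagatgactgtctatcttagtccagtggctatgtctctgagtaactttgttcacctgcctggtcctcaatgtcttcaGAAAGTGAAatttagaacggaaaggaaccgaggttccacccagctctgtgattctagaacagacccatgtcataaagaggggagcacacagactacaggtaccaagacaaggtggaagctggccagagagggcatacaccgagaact
Myd88: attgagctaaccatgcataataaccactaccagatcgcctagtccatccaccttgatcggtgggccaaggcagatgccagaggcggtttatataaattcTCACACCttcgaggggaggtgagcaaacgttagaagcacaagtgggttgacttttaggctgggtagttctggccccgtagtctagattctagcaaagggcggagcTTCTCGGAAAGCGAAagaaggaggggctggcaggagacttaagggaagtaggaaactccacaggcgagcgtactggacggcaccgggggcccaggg

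The interferon-γ activated site was found once in the Il12rb2 window, 123 bases before the start, and 2 times in the Il18r1 window, 219 and 152 bases before it. The Myd88 window held it 46 bases before the start, and it overlapped there with the response element core at 40 bases before. Of 32851 windows of this length, 8.3% held the first motif and 8.56% the second. The Stat4 window held the response element core 97 bases before its start. A T-box core, found in 3.98% of all windows, stood in the Myd88 window, and a RUNX core, found in 16.8%, in that of Il18rap, on the opposite strand. The remaining windows of Il18r1 held 1 RUNX core in all, and those of the first Stat4 start, Jak2 and Tyk2 held no match. These are matches of letters only. GC content ranged from 42.3% for Il18rap to 81% for Jak2, around a median of 52.7% over all windows.

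Compared per kilobase of the median transcript length that the table lists, Il18rap had the highest mean level over the 24 libraries, 688 CPM per kb. Stat4 followed at 149, Tyk2 at 97.4, Il12rb2 at 93.7, Il18r1 at 78.6, Il12rb1 at 66.8, Myd88 at 57.8 and Jak2 at 10.3 CPM per kb. This order over all libraries differed by group: in RMA intermediate Il12rb1 (122 CPM per kb) and Il12rb2 (120.1) had higher means than Tyk2 (107.3) and Stat4 (107.0). That order depends on the length used: without it, Il12rb1 had a mean of 148 CPM there, below Stat4 (197), Il12rb2 (336) and Tyk2 (486). The accessory chain of the IL-18 receptor was thus the most abundant of the 4 receptor transcripts. Jak2 varied most, with a highest library 7.18 times its lowest, followed by Il12rb1 at 5.87 times. Il12rb2 varied least, at 2.09 times. When the groups were put in order of their mean for each gene, 45 of the 48 neighbouring pairs overlapped, so most of these orders rest on less than the spread of the libraries. All further levels are normalized CPM without the length.

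**Figure D1:**
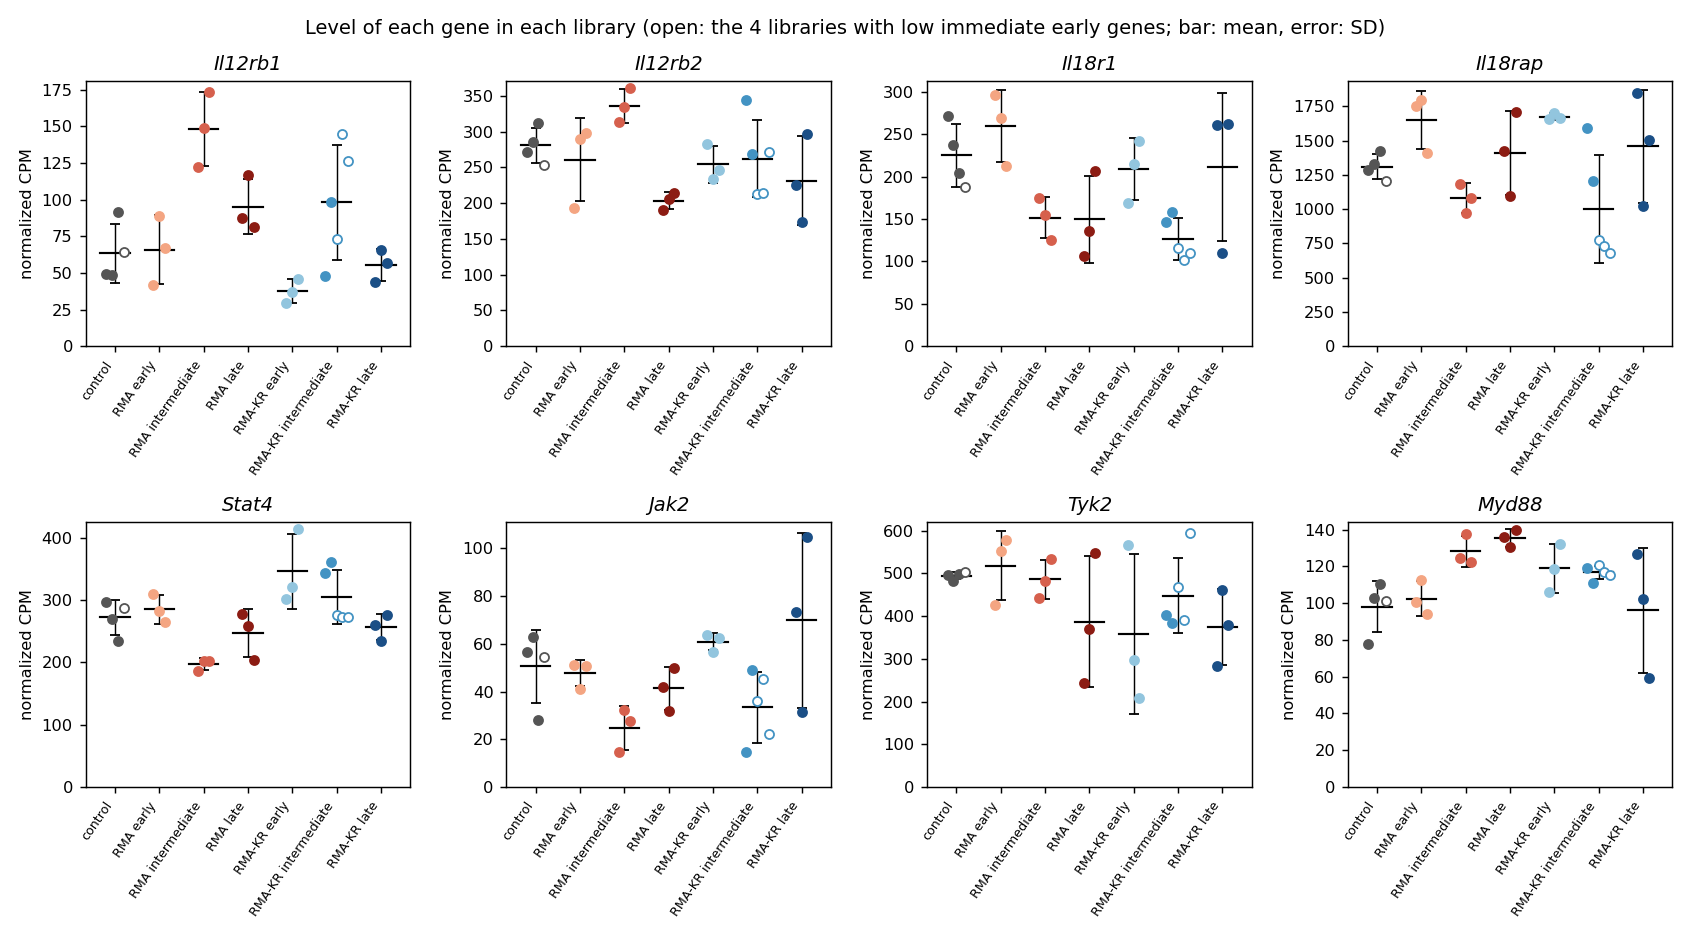
Normalized CPM (y axis, from 0) of each of the 8 genes in each of the 24 libraries by group (x axis). Points are libraries, open where immediate early genes were low, with the mean as a bar and the SD as the error. The 3 RMA intermediate libraries of Il12rb1 lie between 122 and 174, above all 4 controls.

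Il12rb1, the β1 chain (mm10 chr8:70808449-70821424, + strand), was highest in NK cells of the RMA intermediate group. Its levels there were 122, 149 and 174 CPM, against 49.3, 48.4, 91.4 and 64.5 in controls. Every library of this group was above every control. The log2 fold change was 1.22 (SE 0.32, 95% interval 0.57 to 1.88, adjusted p = 0.0385, edgeR), a 2.34-fold higher level. The call is close to the threshold: it was lost without control 1 (adjusted p = 0.155), control 2 (0.139), control 4 (0.108), RMA intermediate 2 (0.102) or RMA intermediate 3 (0.178), with log2 fold changes of 1.08 to 1.26. Without the 4 libraries of low immediate early genes it was 1.25 (adjusted p = 0.0671).

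In the RMA late group Il12rb1 was at 87.3, 117 and 81.6 CPM, which overlaps the controls (log2 fold change 0.59, SE 0.32, adjusted p = 0.414). In the RMA early group the levels were 42.0, 88.6 and 67.3 CPM, overlapping the controls. The RMA-KR intermediate libraries were spread widely, at 48.0, 98.3, 73.2, 145 and 126 CPM. The difference from control was 0.63 (SE 0.28, adjusted p = 0.814) and 0.23 without the 4 libraries (adjusted p = 0.966). The 3 RMA-KR libraries among them averaged 115 CPM, and the other 2 RMA-KR intermediate libraries averaged 73.1 CPM.

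The RMA-KR early group had the lowest mean Il12rb1 of the 7 groups, with libraries at 29.6, 37.1 and 45.8 CPM, all below the controls. This difference did not pass the test (log2 fold change -0.76, SE 0.33, adjusted p = 0.541). In the RMA-KR late group Il12rb1 was at 43.8, 65.4 and 56.7 CPM, all below the 3 RMA late libraries, and this difference did not pass either (-0.78, SE 0.34, adjusted p = 0.655). RMA and RMA-KR thus differed by -0.82 at the early stage (adjusted p = 0.357) and -0.60 at the intermediate one (adjusted p = 0.356; -1.02 without the 4 libraries, adjusted p = 0.389) without passing the test.

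Il12rb2, the β2 chain (chr6:67291318-67376188, - strand), is the chain that binds Stat4. It was steadier. Controls were at 272, 285, 313 and 254 CPM. The RMA intermediate libraries, at 314, 334 and 361 CPM, were all above them, and the RMA late libraries, at 191, 205 and 214 CPM, were all below. Neither difference passed the test, at 0.26 ± 0.19 (log2, SE) with an adjusted p of 0.495 for the former and -0.47 ± 0.19 with an adjusted p of 0.257 for the latter (-0.50 without the 4 libraries). The RMA early libraries, at 194, 289.7 and 298 CPM, overlapped the controls. The RMA-KR groups overlapped the controls at every stage, with 233 to 283 CPM early, 212 to 344 CPM intermediate and 173 to 296 CPM late. In mm10 gene models, 1519 exonic bases of Il12rb2 are shared with Serbp1 on the opposite strand. Serbp1 was at 298 to 567 CPM, and the strand setting of the counting is not given in the sources used here, so reads over that stretch may have been dropped or given to either gene.

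The ratio of the receptor chains compares Il12rb2 with Il12rb1 within each library and does not depend on library size. In controls the log2 ratio of counts was 2.46, 2.56, 1.77 and 1.98. It was 1.36, 1.17 and 1.06 in the RMA intermediate group and 1.13, 0.81 and 1.39 in the RMA late group, all below the controls. The means were 1.19 and 1.11, against 2.19 in controls, each difference with p = 0.0571 in a two-sided exact permutation test, the smallest p that 3 libraries against 4 can give, and an adjusted p of 0.229 over the 12 ratio tests. So no p under 0.05 was possible there. The RMA-KR intermediate ratios ran from 0.56 to 2.84, with a difference of -0.69 (exact permutation p = 0.175, adjusted p = 0.299), and -0.12 without the 4 libraries. The RMA-KR early ratios, 3.26, 2.65 and 2.43, were higher in the mean by 0.59 (exact permutation p = 0.171), and the RMA early and RMA-KR late means differed from control by -0.17 and -0.14. Over 9 alternatives each, the RMA early difference ran from -0.31 to -0.02. That of RMA-KR late ran from -0.31 to 0.18, so its sign turned.

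**Figure D2:**
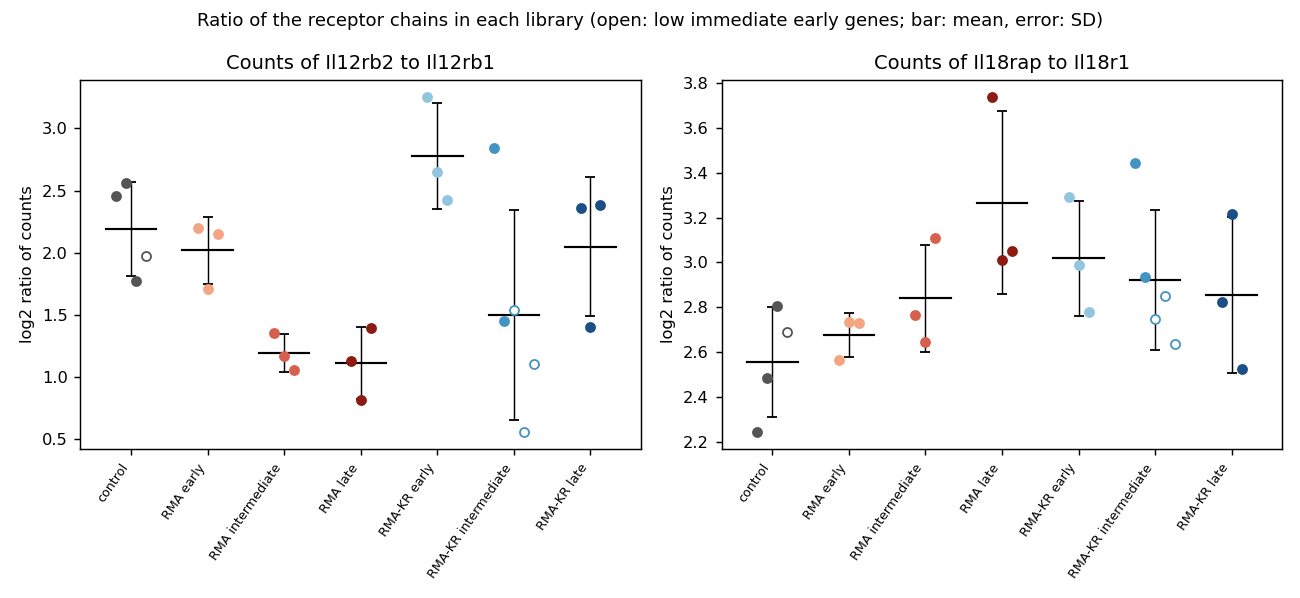
The log2 ratio of counts (y axis) of Il12rb2 to Il12rb1 and of Il18rap to Il18r1 in each library by group (x axis). Bars are means with the SD, and open points are the 4 libraries of low immediate early genes. The 6 RMA intermediate and late libraries lie at 1.39 or less for the first ratio, below the lowest control at 1.77.

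Il18r1 binds IL-18 (chr1:40465552-40500854, + strand) and was lower in every RMA-KR intermediate library than in any control, without passing the test. Its levels there were 147, 158, 116, 102 and 109 CPM, against 271, 237, 204 and 187 CPM in controls. The log2 fold change was -0.83 (SE 0.23, 95% interval -1.30 to -0.36, unadjusted p = 0.00135 in the edgeR fit) and ranked 40 by p among all genes in this comparison, where the adjusted p was 0.497. Without the 4 libraries it was -0.63 (adjusted p = 0.733), with the 2 remaining RMA-KR libraries still below the 3 remaining controls.

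The RMA intermediate libraries were at 174, 155 and 126 CPM, also all below the controls (log2 fold change -0.57, SE 0.26, adjusted p = 0.299). The RMA late libraries were at 107, 136 and 207 CPM (-0.59, SE 0.26, adjusted p = 0.322, and -0.66 without the 4 libraries), and all were below the RMA early libraries at 296, 269 and 213 CPM (-0.79, SE 0.28, adjusted p = 0.137). The RMA-KR late libraries were at 261, 110.0 and 262 CPM, and the RMA-KR early ones were at 169, 215 and 242 CPM. Neither group was separate from the controls.

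Il18rap, the accessory chain (chr1:40515362-40551705, + strand), starts 14507 bases beyond the end of Il18r1 on the same strand. Controls were at 1283, 1329, 1426 and 1206 CPM. The RMA-KR early libraries, at 1656, 1705 and 1663 CPM, were all above them (log2 fold change 0.35, SE 0.23, adjusted p = 0.735), and the RMA intermediate libraries, at 1188, 970.0 and 1082 CPM, all below (-0.28, SE 0.24, adjusted p = 0.580). Neither passed. The RMA-KR intermediate libraries were split between 1596 and 1208 CPM, where immediate early genes were high, and 777, 733 and 679.6 CPM, where they were low. The difference from control was -0.39 (SE 0.20, adjusted p = 0.883) over all libraries and turned to 0.08 without the 4. The RMA early, RMA late and RMA-KR late groups overlapped the controls, with log2 fold changes of 0.33, 0.11 and 0.15.

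Both IL-18 receptor genes varied together over the libraries. Over the 24 libraries the log2 levels of Il18r1 and Il18rap had a Pearson r of 0.75, the highest of any pair among the 8 genes; the libraries share their groups and depth, so this is a description. Il12rb1 ran the other way, with r of -0.65 to Il18rap, -0.58 to Stat4, -0.57 to Il18r1 and -0.53 to Jak2. Its r to Il12rb2, Tyk2 and Myd88 was 0.19, 0.24 and 0.34. Outside the 8 genes, Il18r1 had a higher r to Kif21b (0.88) and Il18rap to Tsc22d3 (0.90), each the best of 9471 candidates. The log2 ratio of Il18rap to Il18r1 was 2.55 ± 0.25 (SD, n = 4) in controls and above that in the mean of every tumor group, up to 3.27 in RMA late. That difference of 0.71 had an exact permutation p of 0.0571, again the smallest possible, and the other 5 differences of 0.12 to 0.46 had p of 0.0952 to 0.457 in the same exact test. The gene models upstream of Il18r1 on the chromosome belong to the same family: Il1rl1, which ends just before it, was at 0 to 9.11 CPM in all libraries.

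Stat4 (chr1:51987148-52107189, + strand) is the transcription factor activated by the IL-12 receptor. It was lower in the RMA intermediate libraries, at 186, 203 and 203 CPM, than in controls, at 297, 269.6, 235 and 287 CPM. All 3 libraries were below all controls, with a log2 fold change of -0.46 (SE 0.15, 95% interval -0.78 to -0.15, adjusted p = 0.134). The RMA-KR intermediate libraries, at 343, 361, 277, 273 and 273 CPM, were all above the RMA intermediate ones. Stat4 was 1.55-fold higher there (log2 fold change 0.63, SE 0.15, adjusted p = 0.0462), which passed on adjusted p and not on fold change. Without the 4 libraries, 3 of which are RMA-KR intermediate, it was 0.84 (adjusted p = 0.0349). Against control, Stat4 in RMA-KR intermediate had a log2 fold change of 0.17 (adjusted p = 0.999), and 0.42 without them. Leaving out 1 library at a time, the adjusted p between the intermediate groups stayed under 0.05 only without RMA-KR intermediate 3 (0.0398). It was 0.435, 0.292 and 0.318 without RMA intermediate 1, 2 and 3 and 0.106, 0.0807, 0.0514 and 0.0529 without RMA-KR intermediate 1, 2, 4 and 5. In edgeR it was also above 0.05 with no filter on low counts (0.341), the replicate block (0.135) or the compared libraries alone (0.0730). The median log2 fold change of all genes tested was 0.23 in this comparison and -0.29 in RMA intermediate against control.

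In the RMA-KR early group Stat4 was at 302, 321 and 414 CPM, all above the controls (log2 fold change 0.35, SE 0.15, adjusted p = 0.545). The RMA-KR late libraries, at 259, 234 and 275 CPM, were all below the RMA-KR early ones (-0.43, SE 0.16, adjusted p = 0.259). The RMA early libraries, at 264 to 309.9 CPM, and the RMA late ones, at 203 to 277 CPM, overlapped the controls. Stat4 shares 1033 exonic bases with Gm28177, which had at most 5 counts in a library.

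The kinases Jak2 and Tyk2 did not pass in any comparison. Jak2 (chr19:29251828-29313080, + strand) was the least abundant of the 8. It was at 56.6, 63.0, 28.1 and 54.6 CPM in controls and at 14.6, 32.3 and 27.5 CPM in the RMA intermediate group. These overlap through 1 control, and the log2 fold change was -1.03 (SE 0.41, 95% interval -1.88 to -0.18, adjusted p = 0.247). The RMA-KR intermediate libraries, at 14.6, 49.1, 36.1, 45.2 and 22.0 CPM, were also lower in the mean (-0.60, SE 0.35, adjusted p = 0.945, and -0.61 without the 4 libraries), and the RMA-KR late ones, at 73.4, 31.4 and 105 CPM, higher (0.47, SE 0.40, adjusted p = 0.626). In the RMA-KR early group Jak2 was at 63.6, 56.7 and 62.4 CPM, above the 3 RMA early libraries at 51.0, 41.2 and 50.9 CPM (0.35, SE 0.43, adjusted p = 0.803). Tyk2 (chr9:21104068-21131243, - strand) had very close control libraries, at 496, 483, 498 and 502 CPM. The tumor groups were less even: 208 to 568 CPM in RMA-KR early, 244 to 549 CPM in RMA late and 384 to 595 CPM in RMA-KR intermediate. Only the RMA-KR late libraries, at 284, 461 and 379.7 CPM, were all below the controls (-0.40, SE 0.27, adjusted p = 0.495).

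Myd88, the adaptor of the IL-18 receptor (chr9:119335934-119341411, - strand), was at 78.0, 103, 110.4 and 101 CPM in controls. Every library was above the controls in the RMA intermediate (124, 138 and 122 CPM), RMA late (136, 130.4 and 140.0 CPM) and RMA-KR intermediate groups (119, 111, 121, 117 and 115 CPM). The log2 fold changes were small, 0.39 (SE 0.19, adjusted p = 0.318), 0.47 (SE 0.19, adjusted p = 0.257) and 0.25 (SE 0.17, adjusted p = 0.999), and did not pass. The latter pair were 0.49 and 0.26 without the 4 libraries. In the RMA-KR late group Myd88 was at 127, 102 and 59.6 CPM, all below the RMA late libraries (-0.49, SE 0.20, adjusted p = 0.655). The RMA late libraries were also all above the RMA early ones, at 101, 113 and 94.1 CPM (0.40, SE 0.20, adjusted p = 0.315), and the RMA-KR intermediate libraries all below the RMA intermediate ones (-0.14, SE 0.18, adjusted p = 0.805). Myd88 shares 290 exonic bases with Acaa1a on the opposite strand, which was at 67.6 to 178 CPM.

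**Figure D3:**
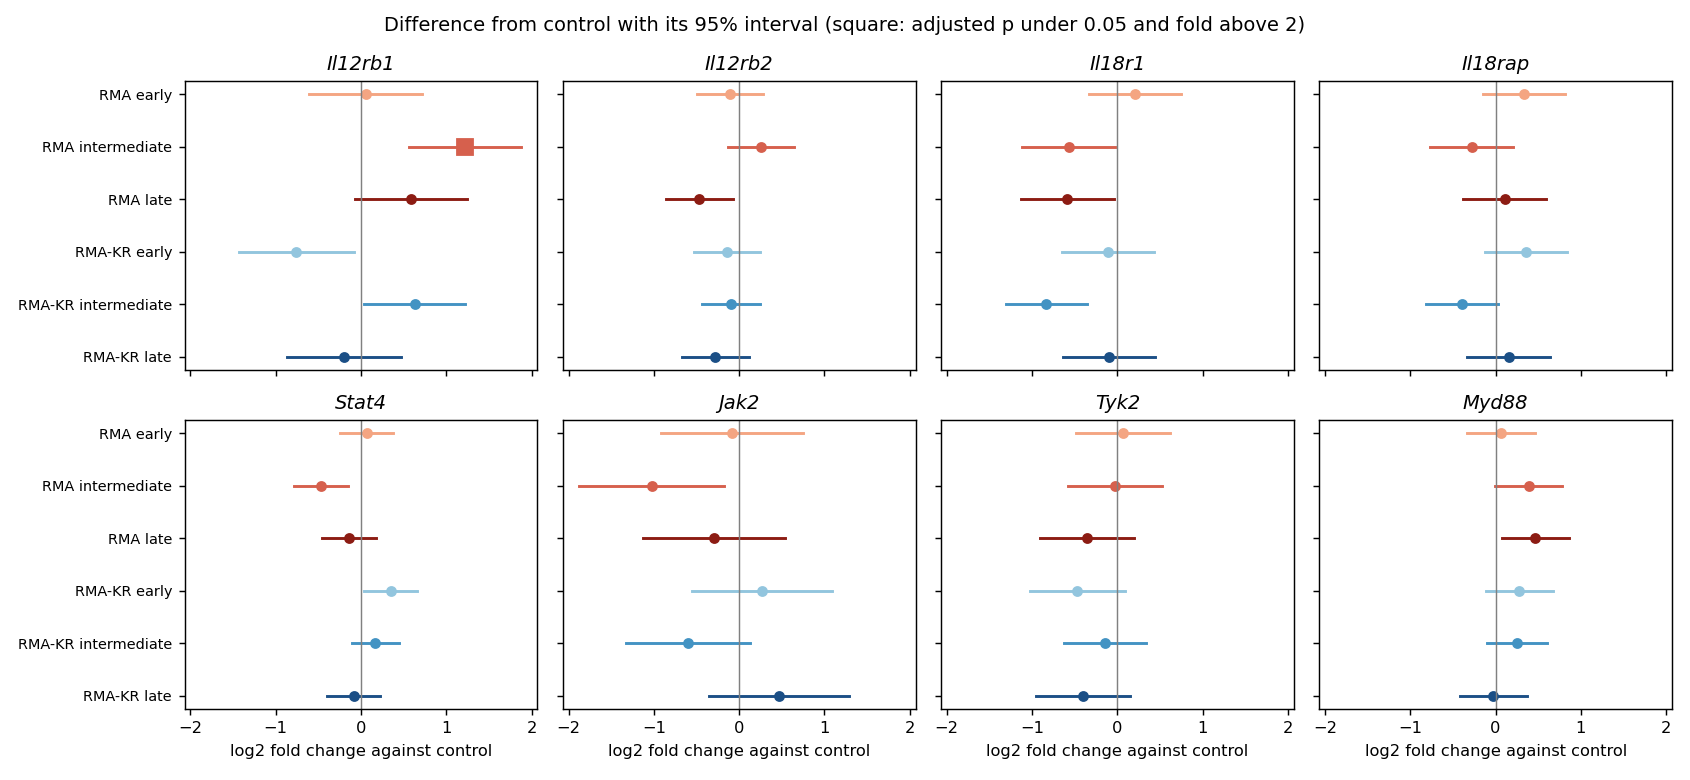
Log2 fold change against control (x axis) of each gene in each of the 6 tumor groups (y axis), with the 95% interval of the edgeR fit as a line. The square marks the 1 difference that passed, Il12rb1 in RMA intermediate at 1.22.

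Counted by comparison, RMA intermediate against control had the most separated genes: 6 of the 8 had groups without overlap, with Il12rb1, Il12rb2 and Myd88 higher and Il18r1, Il18rap and Stat4 lower, where 20.7% of all genes tested had no overlap and 1.65% passed the test. In RMA early against control none of the 8 passed and none was free of overlap, beside 0% and 7.05% of all genes. There 1204 genes had an unadjusted p under 0.05 in the edgeR fit, none of them past the adjusted threshold, and DESeq2 called 60. Without RMA early 3, edgeR called 86 genes in this comparison, and 88 with no filter on low counts. In RMA late 2 of 8 had no overlap (18.0% of all genes, with 1.79% called), in RMA-KR early 3 of 8 (10.5%, with 0.0819% called), in RMA-KR intermediate 2 of 8 (2.63%, with 0.0175% called) and in RMA-KR late 1 of 8 (13.6%, with 0.983% called). These 6 comparisons share the 4 control libraries. Between the tumors, 1 of 8 had no overlap at the early stage (12.8%, with 0.304% called), 2 of 8 at the intermediate stage (9.18%, with 0.503% called) and 2 of 8 at the late stage (9.13%, with 0% called, 1249 genes at an unadjusted p under 0.05 in edgeR and 42 called by DESeq2). Late against early gave 2 of 8 in RMA (19.1%, with 2.01% called) and 1 of 8 in RMA-KR (15.5%, with 0.322% called).

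The other genes of the pathway were read from lists by role. Among further JAK and STAT genes, Jak1 was at 1868 to 1979 CPM in RMA intermediate and 2561 to 3037 CPM in controls, without overlap and without passing the test. Jak1 had a log2 fold change of -0.48 (adjusted p = 0.0807), Jak3 of 0.52 (0.378) and Stat3 of 0.30 (0.323) in RMA intermediate.

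None of the 23 inhibitors of the pathway, such as the SOCS proteins, passed in any of the 11 comparisons with edgeR or with DESeq2, and 23 of their 253 tests had an unadjusted p under 0.05 in edgeR. Over all 17097 genes tested, 1011 to 2936 per comparison had such a p in edgeR. Per comparison 0% to 2.01% of all genes passed with edgeR, and DESeq2 called 24 to 913 genes. The counts of this and the following lists were not tested against these ranges. Socs1 was at 34.7 ± 6.97 CPM (SD, n = 3) in RMA intermediate and 20.9 ± 7.65 CPM (SD, n = 4) in controls (log2 fold change 0.73, adjusted p = 0.304), and Socs3 had a log2 fold change of -0.41 (adjusted p = 0.566). The list's median log2 fold change was 0.06 there, beside -0.29 over all genes. Of 28 genes from the Myd88 adaptor to NF-κB and MAP kinases, 1 passed in 1 comparison with edgeR, where 0.304% of all genes tested passed. The list had 34 of 308 tests at an unadjusted p under 0.05 in edgeR, and 7 calls by DESeq2. The gene that passed was Nfkb2, an NF-κB subunit, lower in RMA-KR early than in RMA early (51.3 ± 16.5 against 149 ± 72.6 CPM, SD, n = 3 each, log2 fold change -1.54, adjusted p = 0.0495). It did not pass without RMA early 2 (adjusted p = 0.268) or without RMA-KR early 1, 2 or 3 (0.0511, 0.216 and 0.172), nor with the compared libraries alone (0.446) or the replicate block (0.0808). The kinases Irak1 and Irak4 and the ligase Traf6 had log2 fold changes of -0.02, -0.33 and 0.21 in RMA intermediate, with adjusted p of 0.506 to 0.998. None of 13 receptors of the same families that could be tested passed with edgeR (19 of 143 tests at an unadjusted p under 0.05, and 4 calls by DESeq2), among them Il1rap (-0.14, adjusted p = 0.945). None of 5 ligands and soluble inhibitors passed with edgeR (10 of 55 tests at an unadjusted p under 0.05, and 0 calls by DESeq2), with Il18bp, the decoy of IL-18, at 0 to 18.8 CPM.

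Of 31 genes known to respond to IL-12 and IL-18, 4 rose and none fell in RMA intermediate, where 1.65% of all genes tested passed: Tnfrsf9, Irf8, Gzmb and Serpina3g. Tnfrsf9, the costimulatory receptor 4-1BB, was at 812 ± 114 CPM (SD, n = 3) there and 146 to 242 CPM in the 4 controls, a log2 fold change of 2.08 (adjusted p = 0.000536). Gzmb, the protease granzyme B, had 1.44 (adjusted p = 0.00834), Serpina3g, a protease inhibitor, 1.19 (adjusted p = 0.0136), and Irf8, a transcription factor, 1.12 (adjusted p = 0.00678). The same 4 passed in RMA late, where 1.79% of all genes did, with log2 fold changes of 1.85 for Tnfrsf9, 1.18 for Gzmb, 1.45 for Serpina3g and 1.01 for Irf8. Over the 11 comparisons edgeR made 13 calls in this list and DESeq2 20. The list was chosen with earlier results of these data known, so its counts beside the share over all genes are descriptions only. Over all 17097 genes tested, edgeR called 0 to 344 per comparison and DESeq2 24 to 913. The list's count was 2 in RMA intermediate without control 1, and 2 in RMA late without control 1, 2 or 4, without RMA late 2 or without the 4 libraries of low immediate early genes. The list's median log2 fold change was 0.14 in RMA intermediate and 0.39 in RMA late, beside -0.29 and -0.18 over all genes.

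In the RMA-KR groups only Tnfrsf9 of this list passed against control, in intermediate (596 ± 186 CPM, SD, n = 5, log2 fold change 1.63, adjusted p = 0.0377) and late (552 ± 174 CPM, SD, n = 3, 1.52, adjusted p = 0.0116). The former did not pass without the 4 libraries (1.31, adjusted p = 0.733) or without any 1 library compared other than RMA-KR intermediate 2, and the latter did not pass without control 1, control 2 or RMA-KR late 2. Gzmb was lower in RMA-KR intermediate than in RMA intermediate, with a log2 fold change of -1.51 (adjusted p = 0.00771), and -1.17 without the 4 libraries (adjusted p = 0.0973). Irf8 had a difference of -0.98 there (adjusted p = 0.0283), short of a 2-fold change, and of -0.63 (adjusted p = 0.319) without the 4 libraries with low immediate early genes. Ifng, the cytokine that both receptors induce, did not pass: it was at 59.3 to 373 CPM in controls, 337 to 393 CPM in RMA intermediate, 449 to 562 CPM in RMA late and 58.0 to 390.5 CPM in RMA-KR intermediate. Control 4 (59.3 CPM) and RMA-KR intermediate 3, 4 and 5 (93.9, 58.0 and 72.2 CPM), the libraries of low immediate early genes, had the 4 lowest levels of Ifng in the study. In late against early RMA libraries, Tnfrsf9 (1.31, adjusted p = 0.0345) and Serpina3g (1.46, adjusted p = 0.00745) rose, and the list's count there was 1 without RMA early 1, RMA late 1 or RMA late 2 and 0 with the compared libraries alone. Many of these genes also respond to other cytokines.

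**Figure D4:**
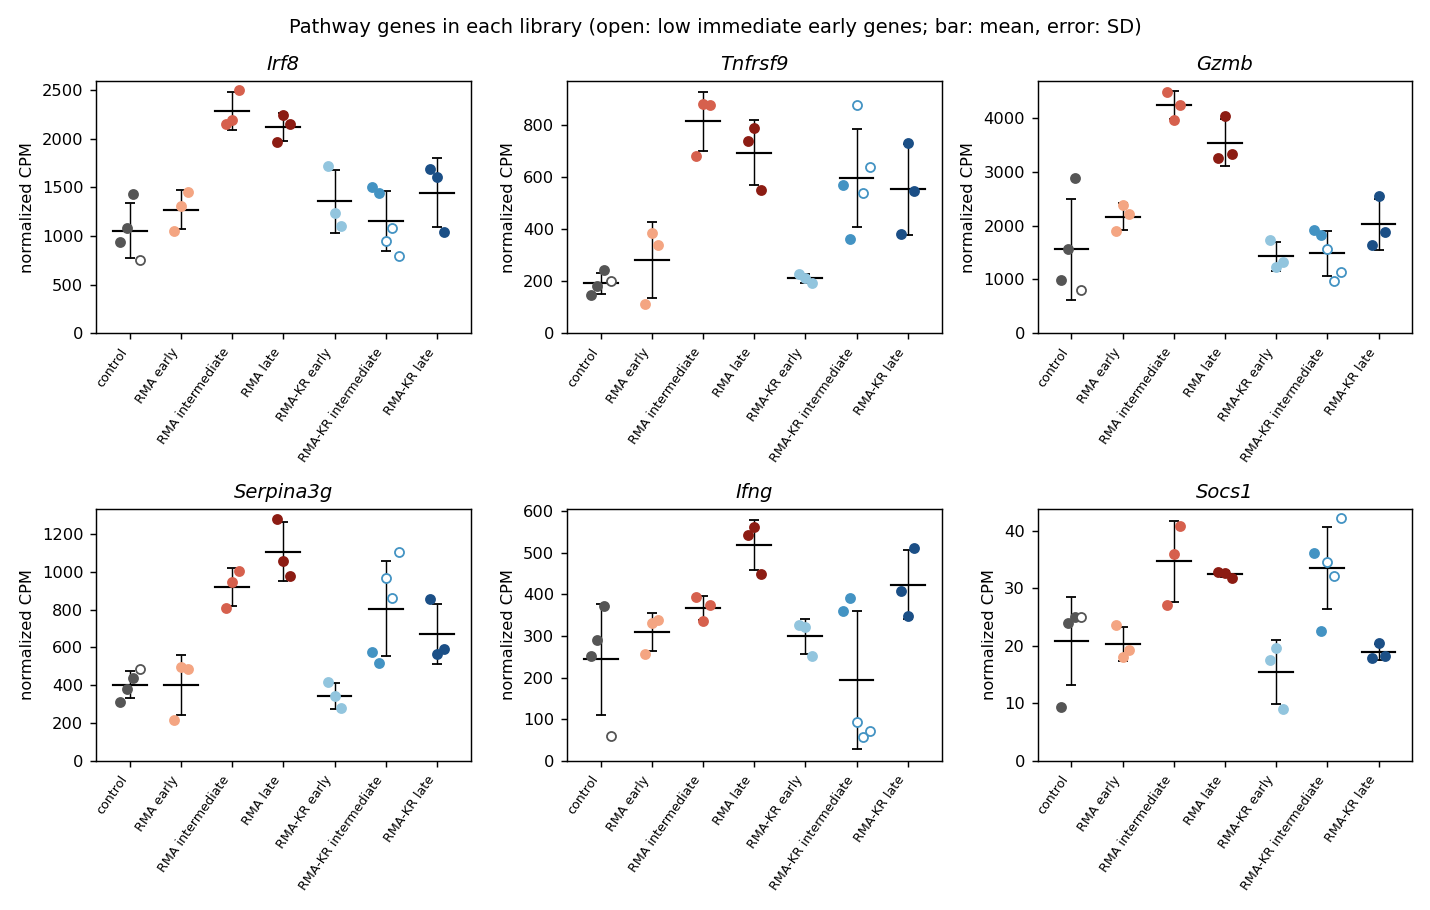
Normalized CPM (y axis, from 0) of the 4 response genes that passed and of Ifng and Socs1 in each library by group (x axis). Bars are means with the SD, and open points are the 4 libraries of low immediate early genes. The RMA intermediate libraries of Tnfrsf9 lie above the highest control at 242.

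The genes whose log2 levels ran most alike over the 24 libraries, among 9471 genes with a mean of at least 5 CPM, were named for each of the 8. For Il12rb1 they were Psme1 (Pearson r = 0.83), Rpn2 (0.82) and H2-Q7 (0.82). For Il18rap they were Tsc22d3 (0.90), Klrb1 (0.87) and Tmem71 (0.87), and for Il18r1 Kif21b (0.88), C530050E15Rik (0.86) and Yy1 (0.84). Stat4 was most like Pde1b (0.81), Rnf167 (0.78) and Ifitm10 (0.78), and Il12rb2 had the weakest likeness, to Pex5 (0.68), Nf2 (0.66) and Tob2 (0.63). Jak2 was most like Brd9 (0.77), Fam196b (0.76) and Arid5a (0.75), Tyk2 like Tbc1d1 (0.87), Myh9 (0.82) and Atp2a3 (0.79), and Myd88 like Tmem147 (0.83), Asf1a (0.81) and Emc3 (0.81). The best of this many candidates is high by selection, so these are descriptions.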

How the data were processed

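Per the labels and the study's methods, the authors trimmed reads with cutadapt 1.10, removed ribosomal RNA with Bowtie2 2.2.8, aligned to mm10 with STAR 2.5.3a and counted reads per gene with HTSeq 0.6.1p1; the strand setting of the counting is not given in the sources used here. The deposited table holds raw counts of 45237 genes in 24 libraries, used as deposited. The 48 columns of normalized values and the authors' fold changes and p-values (DESeq2 1.16.1) were not used. Depth was 5138651 to 14863500 counts, so precision was set mainly by the spread between libraries.

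edgeR 4.0.16 in R 4.3.3 (limma 3.58.1) was fitted to all 24 libraries with TMM scaling, filterByExpr (17097 genes), 1 mean per group and robust quasi-likelihood tests, with Benjamini-Hochberg adjustment over those genes. Calls needed a change of more than 2-fold and an adjusted p below 0.05. Normalized CPM are counts scaled to the TMM-adjusted library total, in CPM. Chain ratios are log2 of counts plus 0.5, tested by two-sided exact permutation tests adjusted over 12. All 8 genes were named, with the called genes of the pathway lists, a fixed set of their uncalled genes, and the 3 genes most alike to each. Some genes of the lists are not reported here. Members and lists were chosen with earlier results of these data known. Scripts were tested on simulated counts. Alternatives were DESeq2 1.42.0, its size factors, its fold change prior, filters, a replicate block, the compared libraries alone and leaving out libraries. Motifs were searched in RefSeq windows of GRCm38.p6.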

Additional observations from a re-analysis of the deposited data

Results flagged for a closer look

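Stat4 in RMA-KR intermediate against RMA intermediate (log2 fold change 0.63, adjusted p = 0.0462 in edgeR) was marked because the tumor lines differed in a direct test. Every RMA intermediate library was below the control mean of 272 CPM. RMA-KR intermediate 1 and 2 were above it, at 343 and 361 CPM, and RMA-KR intermediate 3, 4 and 5 lay close to it, at 277, 273 and 273 CPM. RMA-KR intermediate against control did not pass (log2 fold change 0.17, adjusted p = 0.999 in edgeR). The days differ as well (4 and 7). Of 20 sets of values tested for a library far from the others of its group, 0 had one.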

How the results depend on the processing

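No direction turned among the calls. In RMA intermediate against control 1 of the 8 genes passed (Il12rb1), and 0 passed without the 4 libraries of low immediate early genes, an alternative chosen after seeing the data; leaving out 1 library at a time gave 0 to 1. The adjusted p of Il12rb1 ranged from 0.00752 to 0.178 over the alternatives and its log2 fold change from 1.06 to 1.42. Among all 7 groups 2 of the 8 differed in edgeR, 5 with DESeq2, 4 with at least 10 counts in every library and 1 with the replicate block, and 1 to 3 when a library was left out. Il12rb1 passed in 30 of 30 alternatives, Stat4 in 15 of 30, Il18r1 in 7, Il18rap in 4 and Jak2 in 1. Causes were not tested. The Stat4 difference between RMA-KR and RMA intermediate had adjusted p of 0.000643 to 0.435, and no chain ratio passed (lowest adjusted p 0.171).

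To look for pairing, the group mean of each gene was first subtracted from its log2 levels. What remained had correlations of -0.12 to 0.20 between same-numbered libraries of different groups, with 3 of 64 pairs over 0.1. By it, 5 of 24 libraries matched their own number best, so the numbers were not taken as pairs. With the replicate block, Il12rb1 in RMA intermediate had 1.36 (adjusted p = 0.0106), Stat4 between the intermediate groups an adjusted p of 0.135, and the genes called among the 7 groups went from 973 to 550.

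Counts over all genes moved with the tool. With DESeq2, 620 genes were called in RMA intermediate (282 in edgeR, 477 with no filter on low counts, 762 with the compared libraries alone), 601 in RMA late (306; 472 with no filter), 148 in RMA-KR early (14), 24 in RMA-KR intermediate (3) and 459 in RMA-KR late (168). Between tumors DESeq2 called 297 at the early stage (52) and 305 at the intermediate (86), and for late against early 913 in RMA (344) and 449 in RMA-KR (55). With the compared libraries alone, RMA late against RMA early went from 344 to 1, RMA-KR late against RMA-KR early from 55 to 2, RMA-KR early against RMA early from 52 to 0 and RMA-KR intermediate against control from 3 to 0, while RMA late went from 306 to 573. Among the 7 groups DESeq2 called 2582 (973; 4587 with no filter). DESeq2 with its fold change prior could not be fitted for the 7-group test.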
